A study of Mus musculus with 3 samples.

Results

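Nuclear factor κB (NF-κB) is a family of dimeric transcription factors that innate immune cells use to switch on inflammatory genes, and many of its targets encode the pathway's own brakes and subunits. The 10 genes described here were counted in cells of mouse gliomas and are a list of named genes, drawn up with earlier results of these data known: Nfkbia, Nfkbiz, Tnfaip3, Nfkb1, Nfkb2, Rel, Relb, Icam1, Gpr84 and Bcl2a1b, which make 10 of the 50262 genes of the count table. In resting cells the dimers are held in the cytoplasm by inhibitor proteins. Signals from Toll-like, interleukin-1 or tumor necrosis factor receptors lead to destruction of the inhibitor, the dimers enter the nucleus, and resynthesis of the inhibitor then closes the loop. In the brain, microglia are the resident cells best known for using this pathway.

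The tumors arose in adult mice with a conditional wild-type human EGFR transgene, Cdkn2a-/- and a conditional luciferase reporter, among other alleles, kept on a mixed strain background, after a lentivirus carrying Cre was injected into the striatum. All groups shared this genotype and treatment, and the transgene was therefore active only in cells that the virus reached and in their progeny. Brains without cerebellum were digested with warm collagenase, and living cells were split by sorting for CD45, a surface protein of leukocytes, into CD45+ and CD45- fractions of early, medium and late tumors (the annotation writes large for the stage called late here). There was 1 tumor sample per stage, the study states that early cells were pooled from more than 1 animal, the labels say that samples 1 and 2 were pooled without saying which stages these are, and the 4 libraries of each stage and sort were technical repeats spread over 3 sequencing runs. Whether the medium tumor counts as early or late in the study is not given in the sources used here.

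After filtering, 17781 of 20811 cells were used. The CD45+ sort held 5091 early, 3983 medium and 2111 late cells with 10808099, 9729273 and 5381839 unique molecular identifiers (UMIs, one per captured mRNA molecule), and the CD45- sort held 2725, 1603 and 2268 cells with 8100096, 6559876 and 10589403 UMIs. Levels are UMIs of a gene scaled to 1000000 UMIs of the same cells (counts per 1000000, CPM), and their intervals (95%, exact Poisson) cover counting error only. Within a run, 740 of 20053 barcodes occurred in more than 1 library, which touched 1498 cells. Cell classes were named from RNA markers and carry the ending "-like".

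The upstream 250 bases of 3 of these genes are shown because the members are defined as NF-κB targets. Sequences were taken from RefSeq (GRCm38.p6), which held a window for 7 of the 10 members and none for Nfkbiz, Nfkb1 and Relb. Capitals mark matches to the κB consensus GGGRNNYYCC, searched on both strands, and overlapping matches were merged. In it R is A or G, Y is C or T and N is any base. The first 2 lie before genes for an inhibitor and a subunit, and the third lies before Icam1, where no match to this consensus was found.

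Nfkbia, chr12:55492648-55492897, minus strand: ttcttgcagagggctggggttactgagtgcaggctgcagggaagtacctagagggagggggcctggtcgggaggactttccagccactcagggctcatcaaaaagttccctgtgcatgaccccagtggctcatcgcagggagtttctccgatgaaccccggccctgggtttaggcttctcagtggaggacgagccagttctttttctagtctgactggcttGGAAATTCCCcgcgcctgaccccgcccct
Rel, chr11:23770970-23771219, minus strand: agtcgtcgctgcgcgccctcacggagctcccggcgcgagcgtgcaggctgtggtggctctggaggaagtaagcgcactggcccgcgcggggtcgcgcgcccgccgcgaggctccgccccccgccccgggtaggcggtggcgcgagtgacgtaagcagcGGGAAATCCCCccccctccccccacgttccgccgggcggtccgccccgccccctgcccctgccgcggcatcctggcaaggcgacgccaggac
Icam1, chr9:21015690-21015939, plus strand: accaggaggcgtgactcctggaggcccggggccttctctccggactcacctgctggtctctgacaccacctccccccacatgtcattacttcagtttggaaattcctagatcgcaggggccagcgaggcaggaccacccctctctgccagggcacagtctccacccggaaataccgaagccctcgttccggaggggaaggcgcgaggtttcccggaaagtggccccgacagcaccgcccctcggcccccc

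A match began 29 bases before the start of Nfkbia, and overlapping matches began 92 and 91 bases before that of Rel. Of the 7 members with a window, 4 held at least 1 match (Nfkbia, Tnfaip3, Nfkb2 and Rel), while 8.23% of all 27025 genes with a window did. A match is a string of letters and not a shown binding site. A window without one says nothing of sites elsewhere or of sites that depart from the consensus. The Icam1 window, for example, holds tggaaattcc, which departs from it in the first base only.

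All 10 members were higher in CD45+ than in CD45- cells in each of the 3 tumor samples, as the plot of both sorts shows. The question was how far these genes belong to the immune fraction, and the test was the edgeR quasi-likelihood test on UMIs summed per tumor sample and sort (3 against 3, tumor sample as a block, Benjamini-Hochberg over 18433 genes). Each of the 10 passed, while 20.4% of all genes tested were higher and 25.7% lower in CD45+ cells. Scaled by library totals without TMM factors, the split over all genes moved from 3759 higher and 4744 lower to 2589 and 6559, and the 10 members still passed. The call of Bcl2a1b was lost when every gene with a count was tested (adjusted p = 0.12).

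**Figure D1:**
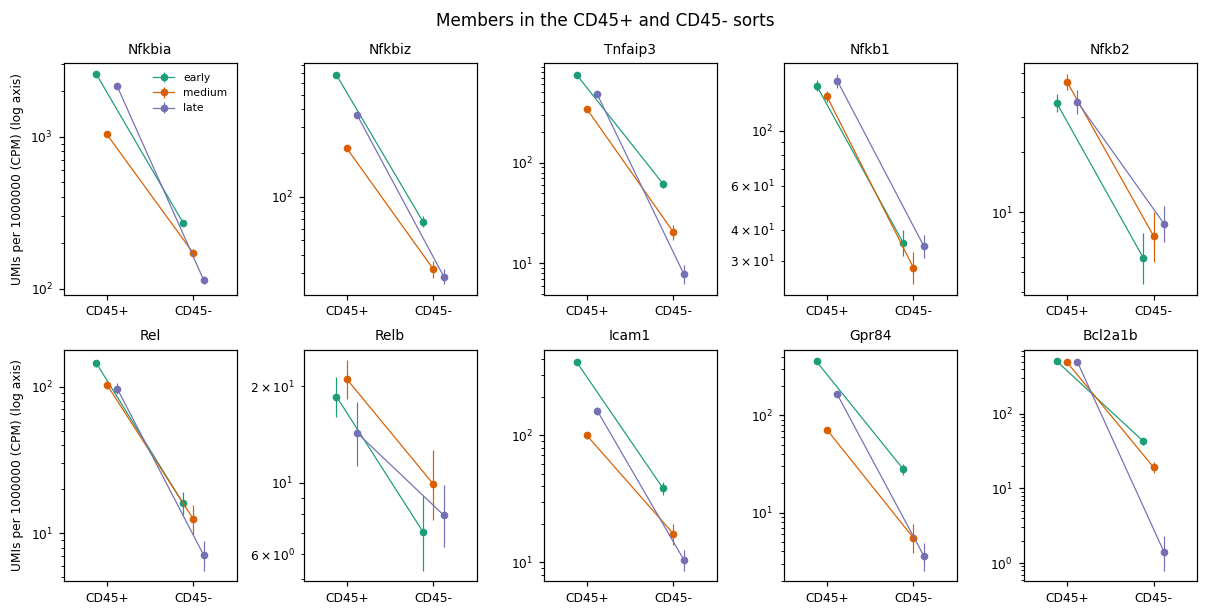
CPM (log axis) of each member in the CD45+ and CD45- sorts, with 1 point per tumor sample joined by a line and bars for the 95% Poisson interval. For every member each CD45+ point lies above all 3 CD45- points, from Relb at 14.3 to 21.1 against 7.04 to 9.91, to Bcl2a1b at 489 to 508 against 1.42 to 43.0.

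The inhibitors come first. Nfkbia encodes IκBα, the classical inhibitor that NF-κB itself induces. It stood at 2565 CPM in early, 1035 in medium and 2140 in late CD45+ cells, against 272, 172 and 114 in CD45- cells. The log2 difference was 3.71 (SE 0.39, adjusted p = 0.000358). Tnfaip3, which encodes the ubiquitin-editing enzyme A20, was at 752, 342 and 477 in CD45+ and at 61.7, 20.4 and 7.84 in CD45- cells, a log2 difference of 4.86 (SE 0.52, adjusted p = 0.000492). Nfkbiz encodes IκBζ, a nuclear cofactor that helps switch on secondary response genes. Its levels were 681, 214 and 362 against 67.2, 31.7 and 28.2, and it was higher by 3.63 (SE 0.27, adjusted p = 0.000135).

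Among the subunits, Rel, which encodes c-Rel, differed by 3.69 (SE 0.24, adjusted p = 0.000117), from 145, 104 and 97.2 CPM in CD45+ cells to 16.1, 12.5 and 7.08 in CD45- cells. Nfkb1 and Nfkb2 encode the precursors p105 and p100, which are processed to p50 and p52. They differed by 2.57 (SE 0.21, adjusted p = 0.000156) and 2.75 (SE 0.23, adjusted p = 0.000168). Relb, the partner of p52 in the alternative pathway, had the smallest difference of the 10 at 1.48 (SE 0.25, adjusted p = 0.00235) and was sparse, with 201, 205 and 77 UMIs in the CD45+ sort. Rela, which encodes the p65 subunit and is not a member, differed by 1.17 (SE 0.22, adjusted p = 0.00446).

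The effector genes had wide gaps. Icam1, an adhesion molecule that leukocytes bind through integrins, was at 379, 99.8 and 156 in CD45+ and at 38.3, 16.8 and 10.5 in CD45- cells (log2 difference 3.62, SE 0.30, adjusted p = 0.000164). Gpr84, a receptor for medium-chain fatty acids found on myeloid cells, was at 359, 71.4 and 164 against 28.2, 5.49 and 3.59 (4.62, SE 0.43, adjusted p = 0.000321). Bcl2a1b, of the anti-apoptotic A1 family, was at 508, 489 and 495 against 43.0, 19.2 and 1.42 (5.61, SE 0.95, adjusted p = 0.00326). Its CD45+ levels were close in the 3 tumors, and its CD45- level was the one that varied most. The paralogs Bcl2a1a and Bcl2a1d share 31-base stretches with Bcl2a1b over 72.7% of its transcript, so counts of the 3 genes may be exchanged. They were higher in CD45+ cells by 5.37 and 5.70. The mix of CD45+ classes differed between the tumors. Microglia-like cells made up 77.8%, 22.7% and 47.4% of early, medium and late CD45+ cells. They held 90.5%, 50.3% and 67.5% of the CD45+ UMIs of Icam1 and 85.4%, 35.6% and 58.5% of those of Nfkbia. For Bcl2a1b the shares were 81.0%, 19.9% and 25.6%. How far this mix shaped the CD45+ level of each stage was not tested.

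Microglia-like cells were also found in the CD45- sort, where their share of the members' UMIs was high in the early tumor and lower later for most members. Of all CD45- cells they were 8.51% in early, 5.05% in medium and 1.72% in late tumors. In the early tumor they held 90.2% of the CD45- UMIs of Bcl2a1b, 86.0% of those of Tnfaip3, 83.9% of Icam1, 82.0% of Gpr84, 58.5% of Nfkbia and 14.0% of Relb. In the medium tumor the shares were 57.9% for Bcl2a1b, 79.1% for Tnfaip3, 43.6% for Icam1 and 22.7% for Nfkbia. In the late tumor they were 25.2% for Icam1, 20.9% for Nfkbia, 14.7% for Nfkbiz, 5.33% for Rel and 2.48% for Nfkb1, so most CD45- UMIs of these genes lay in other cells. Bcl2a1b was at 93.3% there, on 15 UMIs in all. All 36 medium and all 38 late CD45- UMIs of Gpr84 lay in microglia-like cells. Cluster 8, with the EGFR transgene in 88.56% of its cells, stayed unnamed and was in no class comparison. Its 530 late CD45- cells held 3919791 of the 10589403 UMIs of all genes in the late CD45- sort. They held 172 of 363 late UMIs of Nfkb1 and 174 of 299 of Nfkbiz. For Icam1 they held 33 of 111, for Rel 28 of 75 and for Nfkbia 269 of 1208. Levels in the cluster and in the whole late sort were 43.9 and 34.3 CPM for Nfkb1 and 44.4 and 28.2 for Nfkbiz. They were 8.42 and 10.5 for Icam1, 7.14 and 7.08 for Rel and 68.6 and 114 for Nfkbia.

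Genes of the pathway outside the 10 members were counted in lists. Of 41 core and adaptor genes 24 were higher and 1 was lower in CD45+ cells (median log2 difference 1.19), with Tnip3 at 5.52 (SE 0.39, adjusted p = 0.000126) and Nfkbid at 4.91 as the largest rises and Traf6, an adaptor of Toll-like receptor signaling, lower by 0.75 (log2 difference -0.75, adjusted p = 0.0348), a call lost without any 1 of the tumor samples, with DESeq2 and without the block. Of 13 receptors tested 10 were higher and 1 lower, led by Cd14 at 5.70 and Tlr2 at 5.48, and Il1rap, an interleukin-1 receptor subunit, was the one lower at -3.20. Other target genes were higher in 28 of 31 cases, with none lower (median 4.22), led by the chemokine gene Cxcl2 at 7.28 and Il12b at 6.57. The members' median was 3.66 and that of all genes tested -0.04, of which 20.4% were higher and 25.7% lower. Bcl2a1a and Bcl2a1d, whose counts may be exchanged with those of Bcl2a1b, were among the 28 other target genes. A list of immediate-early genes, which tissue digestion is known to induce, had 16 of 21 genes higher and none lower (median 1.45). Its part in the difference was not tested.

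Within the CD45+ sort the members did not share one leading class, as the plot by CD45+ class shows. The mean over the 3 tumors was highest in microglia-like cells for Nfkbia, Nfkbiz, Icam1 and Gpr84, in T cell-like cells for Tnfaip3, in dendritic-like cells for Nfkb1, Nfkb2, Rel and Relb, and in macrophage or monocyte-like cells for Bcl2a1b. After thinning each cell to 1000 UMIs Nfkb2 was highest in neutrophil-like cells, and with classes set cell by cell from markers Bcl2a1b was highest in dendritic-like cells. Clustered more coarsely, a setting added after seeing the data, no dendritic-like class was left and those 4 subunit genes were highest in 3 other classes. In bulk sums of a class, fewer cells with a transcript and less RNA per cell cannot be told apart.

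**Figure D2:**
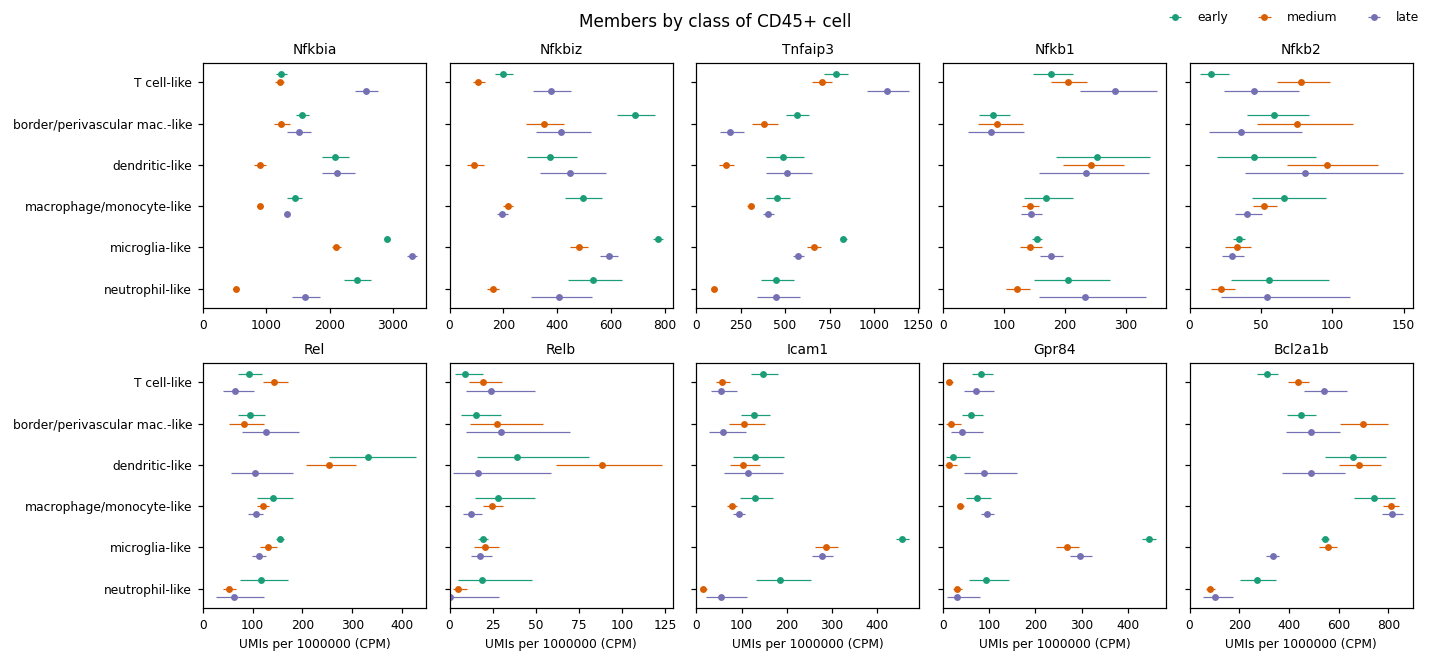
CPM of each member in the 6 classes of CD45+ cell with at least 30 cells at every stage, with 1 point per tumor sample and bars for the 95% Poisson interval. Gpr84 in microglia-like cells lay between 269 and 445 and at no more than 95.04 in any other of the named classes plotted, and Rel reached 332 in early dendritic-like cells.

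Among the named classes, Gpr84 and Icam1 were higher in microglia-like cells than in each of the 5 others. Gpr84 stood at 445 CPM in early, 269 in medium and 298 in late microglia-like cells. In T cell-like cells it was at 83.1, 12.9 and 72.3. The log2 difference of microglia-like cells was 2.87 (SE 0.38, adjusted p = 7.16e-06) against T cell-like, 2.25 (SE 0.35, adjusted p = 0.000147) against macrophage or monocyte-like and 3.29 (SE 0.46, adjusted p = 2.19e-05) against dendritic-like cells. Icam1, at 455, 287 and 278, was higher than in those classes by 2.06, 1.62 and 1.43 (adjusted p = 0.000205, 0.00285 and 0.00906). The unnamed cells of the sort, which were in no comparison, held both genes at unlike levels. Cluster 28, with 173 medium cells, had Gpr84 at 42.4 and Icam1 at 58.0. Cluster 20, led by cell division genes such as Mki67 and Top2a, had Gpr84 at 293, 118 and 156 and Icam1 at 281, 126 and 120 in 73 early, 138 medium and 86 late cells. Both genes were higher in microglia-like cells than in border or perivascular macrophage-like and neutrophil-like cells. Gpr84 passed in all 5 comparisons under each alternative run. Icam1 lost its call against 3 classes (border or perivascular macrophage-like, dendritic-like and macrophage or monocyte-like) without the late sample (adjusted p = 0.12, 0.0813 and 0.079) and without the block (0.0832, 0.0795 and 0.0561).

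The whole set was mixed. Over the 5 comparisons, microglia-like cells were higher for 4 members and lower for none against T cell-like cells (Nfkbia, Nfkbiz, Icam1 and Gpr84), where 17.8% of 8842 genes were higher and 19.3% lower. Without the early sample the count was 2. Against border or perivascular macrophage-like cells 4 members were higher and none lower (5.47% and 7.45% of all genes), with Nfkbia at the threshold (adjusted p = 0.05), and the count was 1 without the late sample. Nfkbia, which passed in 4 of the 5, passed in none without the block or without the late sample. Against neutrophil-like cells 4 were higher (Nfkbia, Icam1, Gpr84 and Bcl2a1b; 13.2%). Against macrophage or monocyte-like cells 3 were higher (Nfkbia, Icam1 and Gpr84; 6.94% of all genes) and Bcl2a1b was lower by 0.86 on the log2 scale (SE 0.30, adjusted p = 0.0484; 11.9% of all genes were lower), a call lost with DESeq2, without TMM factors, without the block and without the late sample. Without TMM factors the split over all genes in that comparison moved from 614 higher and 1055 lower to 826 and 811.

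Of the subunit genes, 4 were lower in microglia-like than in dendritic-like cells. Against dendritic-like cells, microglia-like cells were higher for Nfkbiz, Icam1 and Gpr84 (12.1% of all genes were higher), with Nfkbiz lost without the block (adjusted p = 0.218), without the early sample (0.134) and without the medium sample (0.288), and lower for 4 members (15.9% lower). Those 4 encode subunits or their precursors: Relb, lower by 1.50 (SE 0.48, adjusted p = 0.0225), Nfkb2, by 1.26 (SE 0.44, adjusted p = 0.0365), Rel, by 0.89 (SE 0.29, adjusted p = 0.0271), and Nfkb1, by 0.73 (SE 0.23, adjusted p = 0.0195). The dendritic-like sums were small, with 59, 164 and 46 cells. Leaving out the early sample left 1 of the 4 calls, leaving out the medium sample left 0 and leaving out the late sample left 2. With every gene tested none of the 4 passed (adjusted p = 0.34 for Nfkb1, 0.0702 for Nfkb2, 0.162 for Rel and 0.0715 for Relb). Nfkb2 and Rel were also lost without TMM factors, Nfkb2 with DESeq2 and Rel without the block. Rel in dendritic-like cells was at 332 in early and 105 in late tumors, so the class itself varied between tumors. Rela, a subunit gene outside the list, had a mean of 97.6 in microglia-like and 63.6 in dendritic-like cells and did not pass (log2 difference 0.595, adjusted p = 0.183). Nfkb1 was at a mean of 222 in T cell-like and 244 in dendritic-like cells.

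Messages of broken cells can enter droplets of other classes. The 9 microglia markers, read in the 5 other CD45+ classes, reached a median of 7.05% to 20.5% of their microglia-like level. T cell-like Gpr84 was 18.7% of the microglia-like level in early, 4.79% in medium and 24.3% in late tumors, and the 9 markers in those cells ran from 7.27% to 21.0%. After each cell was thinned to 1000 UMIs, 26.0%, 17.8% and 20.5% of early, medium and late microglia-like cells had a Gpr84 UMI (37.1%, 25.5% and 28.1% before thinning), against 4.36%, 0.96% and 1.75% of T cell-like cells. Median depth before thinning was 1946, 1738 and 1827 UMIs in microglia-like and 1829.5, 1926 and 1872 in T cell-like cells.

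For Icam1 the thinned shares were 28.3%, 21.5% and 22.2% in microglia-like cells and 11.7%, 4.57% and 3.51% in T cell-like cells. An annotated gene on the opposite strand of Icam1, Gm47079, was counted at 435, 277 and 257 CPM in the same microglia-like cells, close to Icam1 itself. Gm49482, opposite Gpr84, was at 135, 87.0 and 56.8. Whether counting used the strand is not stated, so reads of each pair cannot be told apart.

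Genes most alike to a member were ranked by Pearson r of log2(CPM + 1) over 24 class and stage sums of the CD45+ sort, among 7400 genes with a mean of at least 20 CPM. These sums share libraries and free RNA, so r is a description only. Nfkbid, another inhibitor, was most like Nfkbia (r = 0.94), followed by Gadd45b and Btg2 (both 0.90). Gpr84 was most like Olfml3 (0.90), Cx3cr1 and Gpr34 (both 0.86), genes typical of microglia. Nfkb1 was most like Btg1 (0.96) and Coro1a (0.92). Icam1 was most like its opposite-strand gene (0.97), and Bcl2a1b most like its paralogs Bcl2a1d (0.98) and Bcl2a1a (0.96). No gene came closer to Relb than Wdcp at 0.81.

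Microglia-like cells of the early tumor held the highest levels of Nfkbiz, Tnfaip3, Rel, Icam1 and Gpr84 among the stages, while Nfkbia and Nfkb1 were highest in the late tumor. There is 1 tumor sample per stage, so no test between stages was possible, and values are given by library. A library was used where it had at least 30 microglia-like cells, which left 4 early, 4 medium and 2 late libraries. The class held 3960 early, 905 medium and 1001 late cells. Different clusters filled it, with clusters 0, 1 and 3 holding most early cells, cluster 6, led by Cxcl13, and cluster 0 most medium cells, and cluster 1 close to as many late cells as all other clusters together. The microglia marker P2ry12 was at 3627, 3328 and 3017 CPM in early, medium and late cells of cluster 0, and at 1703 in early and 1666 in medium cells of cluster 6, where Lyz2, a macrophage marker, was at 544 and 635.

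**Figure D3:**
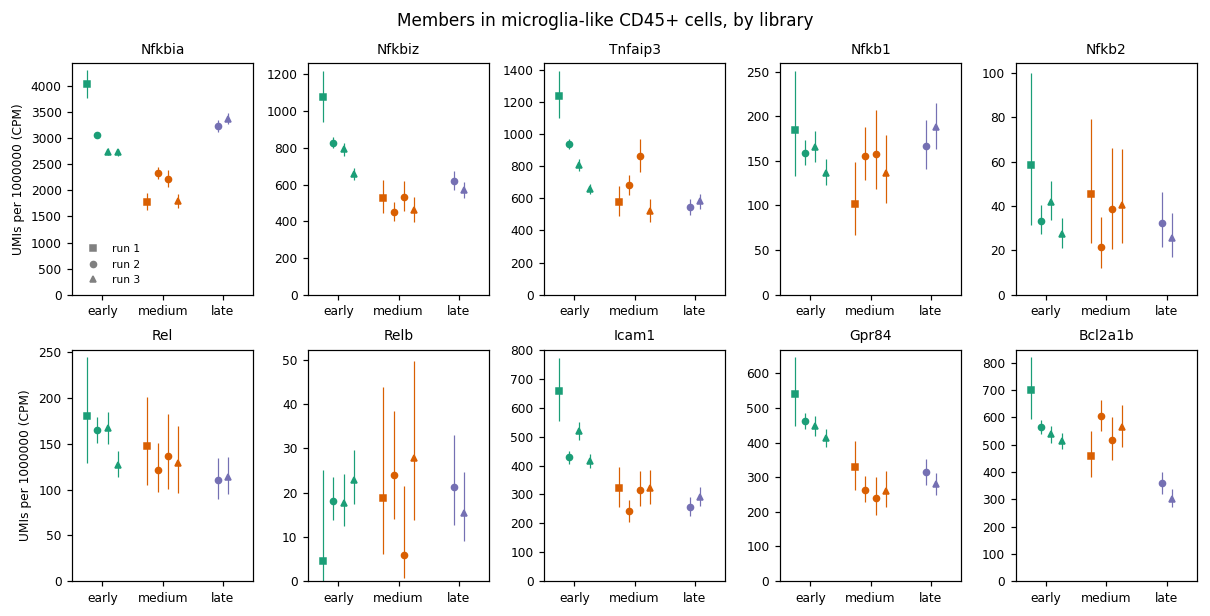
CPM of each member in microglia-like CD45+ cells, with 1 point per library of at least 30 such cells, marker shape for the sequencing run and bars for the 95% Poisson interval. Early libraries lie above medium and late ones for Icam1, from 415 to 657 against 241 to 322 and 257 to 292, and for Gpr84, from 412 to 540 against 241 to 328 and 280 to 315.

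Icam1 was at 657, 428, 518 and 415 in the early libraries, at 321, 241, 315 and 322 in the medium and at 257 and 292 in the late ones. Gpr84 was at 540, 463, 448 and 412, at 328, 264, 241 and 261, and at 315 and 280. Nfkbiz was at 1076, 829, 791 and 659, at 528, 451, 533 and 461, and at 620 and 568. For these 3 genes every early library was above every medium and late one, as for 1.27% of 11878 genes with at least 50 UMIs in microglia-like cells. Genes with few UMIs overlap more easily, and that share was not matched on level. Libraries of a stage are technical repeats of 1 tumor sample.

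Bcl2a1b was at 702, 564, 538 and 513 in early, 460, 605, 518 and 565 in medium and 358 and 303 in late libraries, so the late libraries stood below all others (1.74% of all genes and 2 members, Bcl2a1b and Rel) and early and medium ones overlapped. Tnfaip3 ranged from 660 to 1242 in early, 519 to 863 in medium and 547 to 581 in late libraries. Rel ranged from 127 to 180, 122 to 147 and 110 to 114, and both genes were apart between early and late but not between early and medium libraries. The 19 late cells of run 1, whose libraries were too small to be used, had Bcl2a1b at 594 (interval 395 to 858). In them Tnfaip3 was at 954 (696 to 1277) and Rel at 106 (34.4 to 247). In all, 6 members had every early library above every late one (6.98% of all genes) and 4 had every early library above every medium one (5.14%). Nfkbia was at 4041, 3060, 2747 and 2732 in early, 1784 to 2341 in medium and 3238 and 3379 in late libraries. It was therefore lowest in the medium tumor, and early and late libraries overlapped.

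In the remaining subunit genes the early libraries overlapped with those of both other stages. Nfkb1 lay at 137 to 185 in early, 102 to 158 in medium and 166 to 187 in late libraries, and both late libraries were above all medium ones, as for 15.2% of all genes. Nfkb2 and Relb overlapped in all stages, with Nfkb2 at 27.3 to 58.5, 21.3 to 45.3 and 25.5 to 32.4, and Relb at 4.50 to 22.9, 5.95 to 27.9 and 15.5 to 21.2. The early library from run 1, the highest of the early libraries for 9 members, held 88 of the 3960 early microglia-like cells. Rela, for comparison, was at 101, 96.4 and 95.9 in the summed stages.

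Summed over libraries, 2 members were at least 1.5-fold higher in early than in late microglia-like cells: Icam1, with a log2 ratio of 0.71 (interval 0.58 to 0.84, counting error only), and Bcl2a1b, with 0.71 (0.59 to 0.83). None was 1.5-fold lower, and of 11436 genes with at least 50 UMIs 6.87% were that much higher and 10.2% that much lower. Gpr84 fell just outside at 0.58 (0.46 to 0.71), and Tnfaip3 (0.52), Rel (0.46) and Nfkbiz (0.38) followed. Nfkbia had a ratio of -0.18 (-0.22 to -0.15). The members' median was 0.42 and that of all genes -0.08. The count of 2 became 4 without the early library of run 3 that had the lowest Nfkbiz level, and 1 without the late library of run 3, when Bcl2a1b fell to 0.56.

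Against the medium tumor 3 members were at least 1.5-fold higher: Gpr84 at 0.73 (0.59 to 0.87), Nfkbiz at 0.69 (0.58 to 0.79) and Icam1 at 0.67 (0.53 to 0.80). Icam1 was at 0.51, below 1.5-fold, without the medium library of run 2 with its lowest level, which left 2 members. Here 14.5% of 11247 genes were that much higher and 6.44% lower. Nfkbia followed at 0.46 and Tnfaip3 at 0.32, and Bcl2a1b did not differ beyond counting error (-0.03, interval -0.13 to 0.08). Both sets of ratios share the early libraries.

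**Figure D4:**
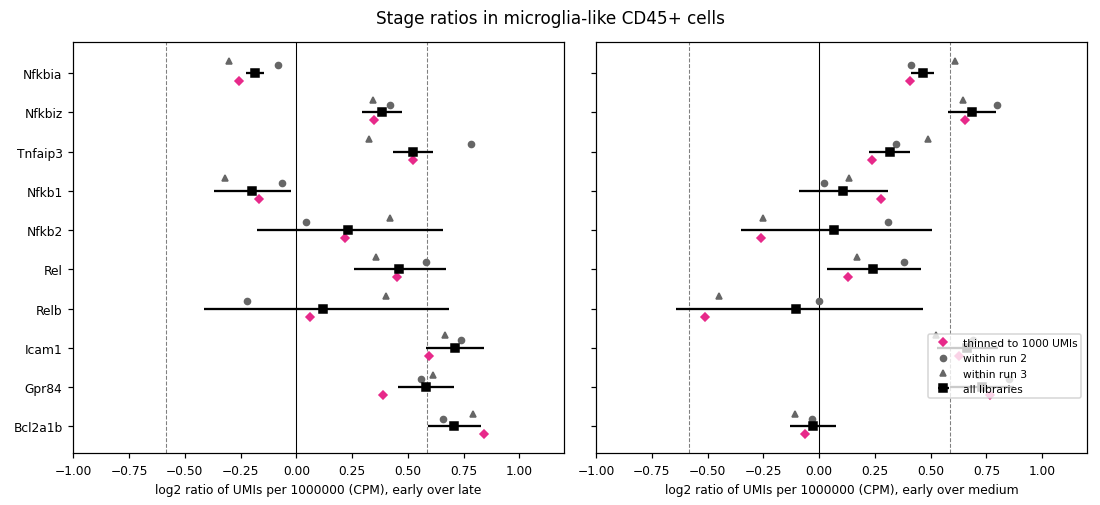
Log2 ratio of CPM of each member in microglia-like cells, early over late (left) and early over medium (right), with squares and bars for all libraries and the 95% counting interval, diamonds for cells thinned to 1000 UMIs, grey circles for run 2 and grey triangles for run 3. Dashed lines mark a 1.5-fold difference, which Icam1 with all libraries passes in both panels (0.71 and 0.67) and Bcl2a1b only in the left one (0.71 and -0.03).

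Single ratios crossed the 1.5-fold line between runs. In cells thinned to 1000 UMIs the early over late ratio was 0.59 for Icam1, 0.84 for Bcl2a1b and 0.39 for Gpr84. Within run 2 it was 0.74, 0.66 and 0.56, and within run 3 0.67, 0.79 and 0.61. Early over medium, the thinned ratios were 0.77 for Gpr84, 0.66 for Nfkbiz and 0.63 for Icam1, and the values within runs 2 and 3 were 0.85 and 0.72, 0.80 and 0.65, and 0.69 and 0.53. Icam1 was thus below 1.5-fold within run 3, and Gpr84 and Nfkbiz were above it in both runs. Run 1 had too few late microglia-like cells for a value.

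Ratios within single clusters, a comparison added after seeing the data, varied widely. Within clusters 0 and 3 no member was 1.5-fold higher in early than in medium cells (14.9% and 23.7% of all genes were), against 5 members in cluster 6 (479 of 4337 genes) and 6 in cluster 13 (22.6%). Clusters 1 and 3 held 70 and 69 medium cells. In cluster 1 the Icam1 ratio turned to -0.36, from 753 early and 67 medium UMIs. Early over late, Icam1 stayed above 0 in each of the 6 clusters with at least 50 cells in both stages, from 0.52 to 1.52, while Gpr84 ranged from -0.03 in cluster 13 to 1.16 in cluster 6. In clusters 6 and 13 the early over medium ratios were 0.97 and 0.93 for Icam1, 0.98 and 1.19 for Gpr84 and 1.01 and 1.02 for Nfkbiz. Other markers moved with stage in both clusters. In cluster 13 P2ry12 was at 3333 in early and 1685 in medium cells, Lyz2 at 254 and 1272 and Cxcl13 at 266 and 1953. In cluster 6 the late cells had P2ry12 at 1160, Lyz2 at 1106 and Cxcl13 at 3669, against 1703, 544 and 1071 in early cells. Their part in the ratios was not tested.

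Cells carried several members at once. After thinning to 1000 UMIs, 47.4% of 3865 early microglia-like cells (interval 45.8% to 49.0%, exact binomial, counting error only) had UMIs of at least 3 of the 10 members, against 33.9% of 904 medium and 38.7% of 953 late cells. At least 5 members were seen in 15.9%, 10.7% and 7.56%. At least 1 was seen in 84.6%, 78.3% and 83.6%.

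Other NF-κB targets in microglia-like cells went partly the same way. Of 29 other target genes with enough UMIs, 12 were at least 1.5-fold higher in early than in late cells and none lower (median 0.47). Over all genes 6.87% were that much higher and 10.2% lower. Those 12 include Bcl2a1a (log2 ratio 0.65) and Bcl2a1d (0.67), whose counts may be exchanged with those of Bcl2a1b. Il6 (10.8 against 2.94 CPM, log2 ratio 1.88) and Ccl5 (16.3 against 0.49, on 1 late UMI) were also among them, while Sod2 stood at -0.37. Against medium cells 1 of 29 was higher and 5 were lower (median 0.00), where 14.5% of all genes were higher and 6.44% lower. Core and adaptor genes gave 4 higher and 5 lower of 36 early over late and 4 higher and 1 lower early over medium, and no receptor gene passed 1.5-fold in either.

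Values that moved with stage stand beside these. The summed level of the immediate-early list was 26530 CPM in early, 22480 in medium and 33230 in late microglia-like cells. Within each stage, the list and the members' sum ranked the libraries of at least 30 cells alike. Early libraries had the members at 8686, 6658, 6240 and 5704 and the list at 33660, 27800, 26560 and 24230. Medium libraries had 5029, 4905, 4311 and 4262 beside 24590, 23260, 21270 and 20090. A link was not tested. The study counts Nfkbia among immediate-early genes, but it is not in this list. Of the list's 21 genes 1 was 1.5-fold higher and 4 were lower early over late (6.87% and 10.2% of all genes). Early over medium 4 were higher and none lower (14.5% and 6.44%). The mitochondrial share was 4.96%, 4.39% and 3.48%. With mitochondrial, immediate-early and Cxcl13 counts left out of the total, the early over late ratios were 0.72 for Icam1, 0.72 for Bcl2a1b and 0.59 for Gpr84. Stage, animal pool and time of dissociation cannot be told apart with 1 tumor sample per stage.

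Among the non-immune classes compared, Nfkbia was the member of endothelial-like cells, the cells that line vessels and are a textbook site of Nfkbia and Icam1 induction. It stood at 1241, 1065 and 1519 CPM in early, medium and late CD45- endothelial-like cells, against 69.3 to 88.3 in cells like glioma or oligodendrocyte progenitors. The log2 difference was 4.11 (SE 0.34, adjusted p = 4.42e-10), and it was 2.00 (SE 0.32, adjusted p = 3.58e-05) against fibroblast-like, 3.95 against oligodendrocyte-like, 4.43 against choroid plexus-like and 4.99 against neuron-like cells. Those 5 calls held under each alternative run. Microglia-like cells of the CD45- sort stayed above, a log2 difference of -0.90 for endothelial-like cells (SE 0.30, adjusted p = 0.0345), a call lost without any 1 of the tumor samples, without TMM factors and with every gene tested. Early endothelial-like cells numbered 153, medium 126 and late 68. Unnamed cells, 23.5% of the late CD45- sort, were in no comparison. Nor were mural-like, astrocyte-like and ependymal or ciliated-like cells, with 27, 27 and 12 late cells. Late CD45- cells of unnamed cluster 8 had Nfkbia at 68.6 and Nfkb1 at 43.9 CPM.

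**Figure D5:**
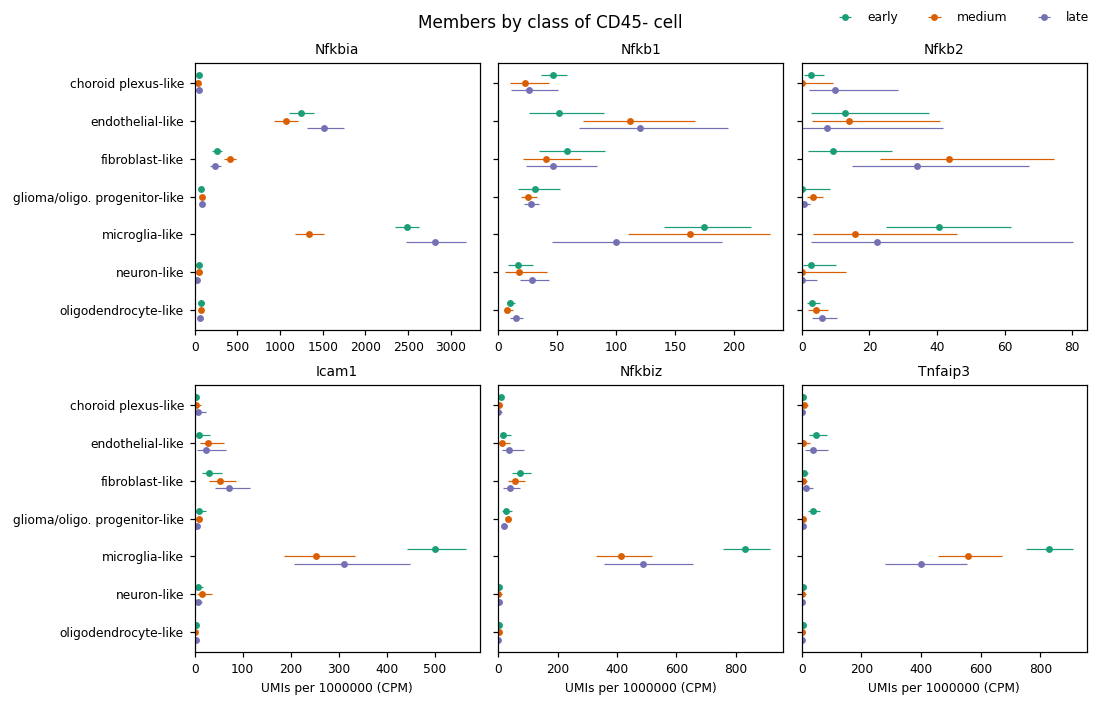
CPM of 6 members in the 7 classes of CD45- cell with at least 30 cells at every stage, with 1 point per tumor sample and bars for the 95% Poisson interval. Nfkbia in endothelial-like cells, at 1065 to 1519, lies above every class but microglia-like, and Icam1 in endothelial-like cells is at 8.56 to 28.03.

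The other members were less distinct there. Relb, at a mean of 12.4 CPM in endothelial-like cells, had too few counts for the test. Nfkb2, Rel, Gpr84 and Bcl2a1b failed the same count filter once microglia-like cells were taken out, so their comparisons with endothelial-like cells are given as levels only. Their means in endothelial-like cells were 11.5, 10.5, 4.28 and 1.43 CPM, and in CD45- microglia-like cells 26.1, 143, 324 and 381. Of the 5 other members (Nfkbia, Nfkbiz, Tnfaip3, Nfkb1 and Icam1), endothelial-like cells were higher for 5 against oligodendrocyte-like cells (15.7% of 11359 genes), for 4 against neuron-like (16.9%), for 4 against choroid plexus-like (15.4%), for 2 against glioma or oligodendrocyte progenitor-like (11.6%) and for Nfkbia alone against fibroblast-like cells (6.94%). Against choroid plexus-like cells the calls of Tnfaip3, Nfkb1 and Icam1 were each lost without at least 2 of the 3 tumor samples, taken out singly. Tnfaip3 against neuron-like cells was lost without the block (adjusted p = 0.0552). Against microglia-like cells none was higher (10.5% of all genes were) and 4 were lower (9.01%), with log2 differences of -4.91 for Nfkbiz, -4.72 for Tnfaip3, -4.37 for Icam1 and -0.90 for Nfkbia. Without TMM factors the split over all genes moved from 1752 higher and 1906 lower to 2248 and 1414 against choroid plexus-like cells, and from 1785 and 1940 to 2263 and 1451 against oligodendrocyte-like cells. Nfkb1 was higher than in glioma or oligodendrocyte progenitor-like cells by 1.88 (SE 0.43, adjusted p = 0.0013). Icam1 in endothelial-like cells was at 8.56, 28.03 and 22.6. It was higher than in oligodendrocyte-like cells, at 1.36 to 3.01 (log2 difference 2.74, adjusted p = 0.0026), a call lost without the medium sample (adjusted p = 0.144), and higher than in choroid plexus-like cells, at 2.52 to 6.49 (2.23, adjusted p = 0.0298), a call lost without any 1 of the tumor samples. Fibroblast-like cells were at 30.6 to 72.5 (log2 difference of endothelial-like cells -1.49, adjusted p = 0.0861, not past the threshold).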

How the data were processed

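The inDrop reads were assigned by the authors with RapMap, run in bcbio-nextgen, to mouse transcripts of GRCm38 (mm10 in the submitters' processing notes) plus the transgenes, and droplets holding cells were then separated from empty ones. The table that the authors deposited holds raw UMI counts of 50262 genes in 20811 cells, with no normalization. The deposited library annotation (other text, no measured value) gives run, stage and sort. Ambient RNA and doublet removal are stated, but not whether they came before the table was written.

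Cells with at least 500 UMIs, at least 500 genes and at most 20% mitochondrial UMIs were kept (17894). Scrublet called 113 of 17786 cells tested (0.635%), which were removed. A rate this low over so many cells was treated as a failed search for doublets, so an alternative removed the top 5% of scores. Depth per sort and stage was 5381839 to 10808099 UMIs.

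Cells were clustered by the Leiden algorithm at resolution 2 (scanpy 1.11.5), with the members, pathway genes and the genes that overlap them left out, and 4 of 40 clusters stayed unnamed. The members and lists were chosen with earlier results of these data known. Named genes were all 10 members, Rela and the Bcl2a1 paralogs, of each list the 2 largest and 2 smallest differences among those called, the 2 highest and lowest stage ratios, and the 3 genes most alike to a member. Paragraphs print part of these.

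UMIs summed per tumor sample and sort, or per tumor sample and class with at least 30 cells at each stage, were tested with the edgeR 4.0.16 quasi-likelihood test (R 4.3.3, TMM, filterByExpr, robust, two-sided) with tumor sample as a block and Benjamini-Hochberg adjustment (threshold 0.05). Both sorts of a stage come from the same tumor sample. Their deviations correlated at r = 0.38, 0.28 and 0.31 over 18433 genes. On simulated sort sums of 16299 genes, 89 were changed by log2 1 and 111 by log2 2, with no effect of tumor sample. The test recovered 18.0% and 95.5% of these, with 6 false calls. Far more genes were called in the real sums, so these rates need not hold there. Replicates are 3 tumor samples, each of another stage, and the block takes up differences between them. The p-values therefore measure how far sort or class differences varied across these samples. Spread between tumors of 1 stage was not measured. Stage ratios of classes have no test and count a gene as past 1.5-fold with at least 50 UMIs in both stages together. Alternatives were DESeq2 1.42.0, no TMM, no filter, no block, leaving out each sample or library, thinning each cell to 1000 UMIs, other class rules and other totals. Clustering at resolution 1 and values within clusters were added after seeing the data. No deposited column of cells was left out. One allele that all groups shared is not reported here.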

Additional observations from a re-analysis of the deposited data

Results flagged for a closer look

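In the 4 medium libraries, Icam1 in microglia-like cells was at 240.9, 315.4, 320.6 and 321.8 UMIs per 1000000 (CPM), and the lowest, from run 2, lay far from the other 3 for its group's range. It had 170 Icam1 UMIs in 358 cells (95% Poisson interval 206.0 to 279.9). Chance marks about 1 in 20 groups in this way, and this was 1 of 20 groups examined. The early over medium log2 ratio of Icam1 was 0.51 without this library and 0.67 with it, so it fell below 1.5-fold without it.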

How the results depend on the processing

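In the sort comparison the count of members called higher was 10 under each alternative but 1, when every gene with at least 1 count was tested (9). The core and adaptor gene called lower (1) became 0 with DESeq2, 4 without TMM, 2 with every gene tested, 0 without the replicate block and 0 to 0 without each tumor sample, and the receptor called lower (1) became 1 to 2 without each sample. For microglia-like cells, members called higher without each sample ranged from 2 to 3 against T cell-like, 1 to 3 against border or perivascular macrophage-like and 1 to 3 against macrophage or monocyte-like cells, and members called lower from 0 to 2 against dendritic-like and 0 to 1 against macrophage or monocyte-like cells. Without the replicate block, which the shared tumor samples justify, members called higher were 2 against border or perivascular macrophage-like, 1 against dendritic-like and 1 against macrophage or monocyte-like cells, and members called lower were 0 against the last. With every gene tested, members called higher were 5 and lower 0 against dendritic-like and higher 7 against neutrophil-like cells. Without TMM, members called lower were 2 against dendritic-like and 0 against macrophage or monocyte-like cells, the latter also 0 with DESeq2. For endothelial-like cells, 4 of the 5 members that kept their place in the filter were called higher than in choroid plexus-like cells. Of these calls, Nfkb1 and Icam1 were lost with every gene tested, and Tnfaip3 and Nfkb1 without the block. Losses without single samples are given above. Over the 9 members in the fit, calls lower than fibroblast-like cells were 0 to 1 without each sample. The block changed calls of single members too, those of Icam1 and Nfkbia given above among them. The causes were not tested.

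Directions turned in 19 values, from tested differences not past the threshold or, for Icam1 within a cluster, from a stage ratio past 1.5-fold. Stage ratios under 1.5-fold that crossed 0 within a cluster, as Gpr84 early over late did in cluster 13, are not counted. Without each sample, log2 differences of microglia-like against T cell-like cells ran from -0.473 to 0.041 for Tnfaip3, -1.01 to 0.27 for Nfkb2, -0.029 to 0.567 for Relb and -0.17 to 0.62 for Bcl2a1b, and against neutrophil-like cells from -0.81 to 0.16 for Nfkb2. Against macrophage or monocyte-like cells Rel ran from -0.052 to 0.035, with 0.004 in DESeq2, 0.12 without TMM and 0.014 without the block, and Nfkb1 was 0.07 without TMM. Endothelial-like against glioma or oligodendrocyte progenitor-like cells ran from -0.91 to 0.12 for Nfkbiz, -0.94 to 0.49 for Rel (0.11 without the block) and -2.34 to 3.13 for Bcl2a1b. Bcl2a1b ran from -0.49 to 4.26 against neuron-like and -1.79 to 1.14 against oligodendrocyte-like cells. Those Bcl2a1b values rest on 0 to 4.28 CPM per sample in the classes compared (0 in each neuron-like sample) and are no measure of a difference.

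Members at least 1.5-fold higher early over late were 1 to 4 without each library. Within clusters they were 4 in cluster 0 (16.9% of all genes there), 2 in cluster 1 (7.29%), 3 in cluster 3 (15.5%), 5 in cluster 6 (14.2%), 4 in cluster 13 (16.8%) and 4 in cluster 21 (14.5%), with 1 lower in cluster 6 (16.3%). Early over medium they were 0, 1, 0, 5 and 6 within clusters 0, 1, 3, 6 and 13, and Icam1 was -0.36 in cluster 1. Over all genes, counts called in the microglia-like comparisons moved by over 1.5 times without single samples, most against neutrophil-like cells (1170 higher, 403 without the medium sample) and macrophage or monocyte-like cells (614 higher, 219 without the late sample). Relb, with 36 late UMIs in microglia-like cells, and Nfkb2, with 60, limit what the stage ratios can show.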
